A study of Homo sapiens with 6 samples.

Results

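Messenger RNA of 34 genes of the distal tubule and collecting duct was followed across 6 arrays of kidney organoids. The members were chosen as probes whose gene symbol, older synonyms counted, is one of the 34 listed genes, and probes of a gene were averaged. The arrays named 33 of them, among 17446 genes in all, and no probe was named MUC1. The organoids, clusters of nephron-like and stromal cells, were grown from the human embryonic stem cell line H9 and harvested at day 35. PKHD1, the gene of autosomal recessive polycystic kidney disease, was mutated in all of them: clone C51 is PKHD1-/- and clone C9 is PKHD1+/-, so no unedited line is compared. Each genotype was grown in 3 ways. Flow organoids lay on gelbrin, a crosslinked gelatin and fibrin matrix, under medium moving at 4.27 ml/min from day 15. Forskolin organoids received 20 µM forskolin, which activates adenylyl cyclase and raises cyclic AMP, from day 14, and the labels do not place them on the matrix. Static organoids lay on the same matrix without flow. Each combination of genotype and culture has 1 array. Since each genotype is 1 clone, differences between the genotypes cannot be told apart from differences between the clones.

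The distal nephron is built in segments. The thick ascending limb reabsorbs salt without water, the distal convoluted and connecting tubules fine-tune sodium, calcium and magnesium, and the collecting duct holds principal cells, which move water and sodium under vasopressin and aldosterone, and intercalated cells, which move acid and base. In the embryo the collecting duct grows from the ureteric bud and the other segments from the nephron progenitors. In the adult collecting duct, vasopressin acts through the same cyclic AMP signal that forskolin raises.

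The median probe lay 39.7 and 58.3 intensity units above the blank spots on the PKHD1-/- and PKHD1+/- flow arrays, 16.5 and 21.2 on the PKHD1-/- and PKHD1+/- forskolin arrays, and 33.6 and 37.2 on the PKHD1-/- and PKHD1+/- static arrays. Across genes, arrays correlated at 0.922 to 0.983, and the forskolin arrays correlated with the others at 0.922 to 0.953. Per the names of the deposited files, the forskolin arrays carry another scan date than the other 4. Agent, matrix and scan date therefore cannot be told apart in the forskolin comparison, while flow and static arrays share their date. The targeted gene gave no check of the labels: the PKHD1 probe had log2 levels of 7.37, 7.33 and 7.35 in PKHD1-/- flow, forskolin and static organoids, against 7.40, 7.24 and 7.49 in PKHD1+/- organoids in the same order. Its part of the transcript relative to the edit is not given in the sources used here.

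Most of the 33 genes lay under the median intensity of their arrays. A probe counted as above background when it exceeded the blank spots by 2.0 SD. By that rule 23 genes were above background on all 6 arrays, 6 on 2 to 5 arrays and 4 on 1 array. The calls depend on the array: 94.7% of all probes passed on the PKHD1+/- flow array, against 83.6% to 89.0% on the others. BSND, ESRRG and ATP6V0D2 were above background only on that PKHD1+/- flow array. On the deposited intensity scale, on which every array has a median of 25, 5 genes reached 25 on all arrays (EGF, MAL, WFDC2, GATA3 and HSD11B2), and 10 reached it on any array. In whole-organoid RNA, fewer cells of a type and less RNA per cell cannot be told apart.

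**Figure D1:**
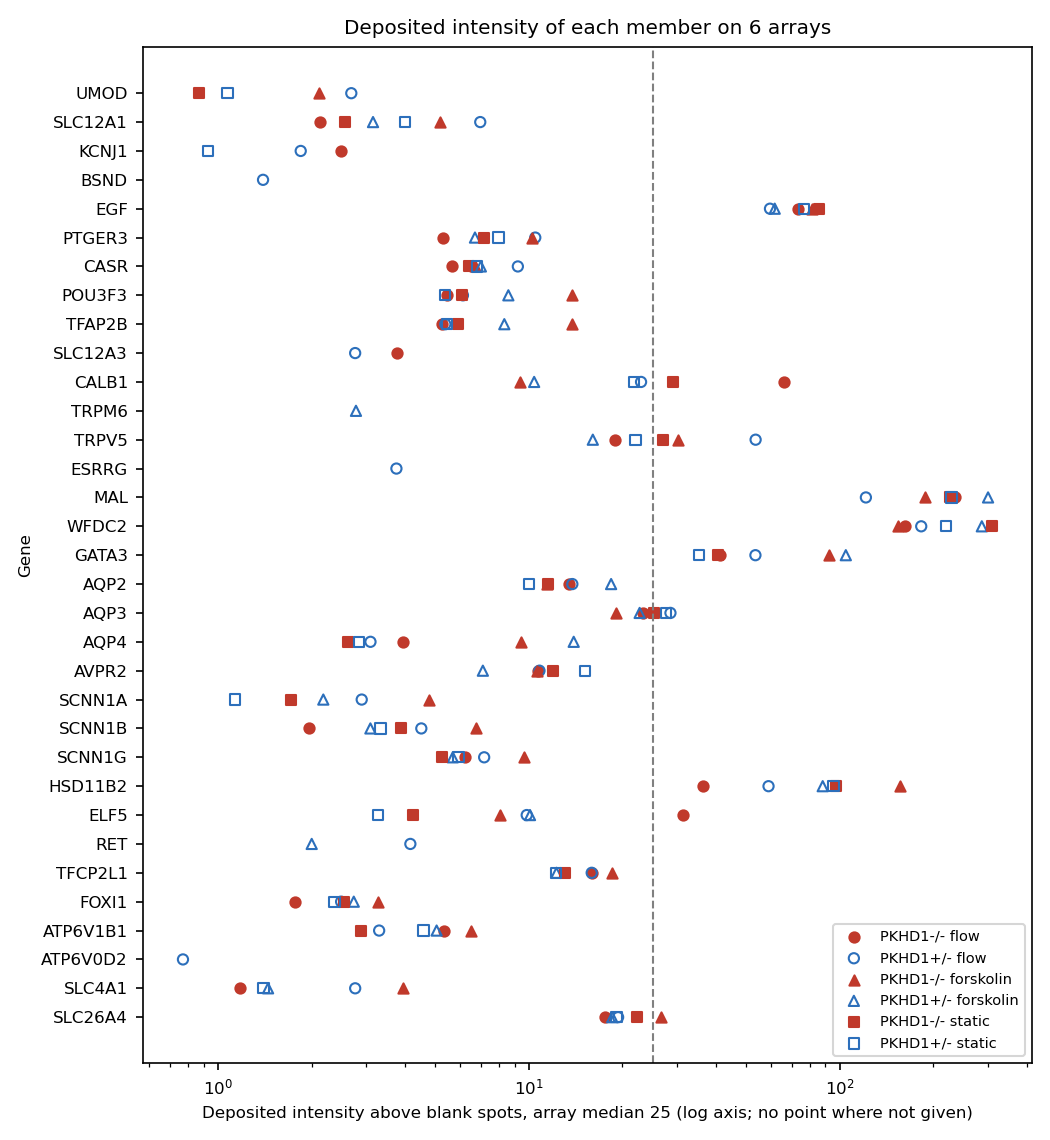
Deposited intensity of each of the 33 genes (rows) on a log axis, 1 point per array; filled red symbols are PKHD1-/- and open blue symbols PKHD1+/-, circles flow, triangles forskolin and squares static, and the dashed line is the array median of 25. Only 5 genes lie at or above the line on all 6 arrays, and a gene has no point on an array where the authors' table gives no value.

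Among the thick ascending limb genes, 4 of 7 were above background on all arrays. UMOD, which encodes uromodulin, the defining secreted protein of the segment, had deposited intensities of 2.68 in PKHD1+/- flow, 2.11 in PKHD1-/- forskolin, and 0.869 and 1.07 in PKHD1-/- and PKHD1+/- static organoids, with no value on the other 2 arrays. SLC12A1, the sodium-potassium-chloride cotransporter blocked by loop diuretics, lay between 2.13 and 6.97 on the 6 arrays. KCNJ1, the potassium channel that recycles potassium to that cotransporter, was above background on 3 arrays. BSND, a subunit of the basolateral chloride channels, was above it on 1. UMOD, SLC12A1, KCNJ1 and BSND thus lay under the array median, and of these only SLC12A1 was above background on all arrays. EGF, a growth factor made by the thick ascending limb and distal convoluted tubule, was above the array median on every array, at deposited intensities from 59.7 to 85.8. PTGER3, a prostaglandin E2 receptor, and CASR, the calcium-sensing receptor, were above background on all arrays and varied by 0.12 and 0.13 log2 units.

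The early distal and distal convoluted tubule group had 9 of 10 genes on the array. SLC12A3, the thiazide-sensitive cotransporter that defines the distal convoluted tubule, was above background only on the flow arrays, at deposited intensities of 3.77 in PKHD1-/- and 2.76 in PKHD1+/- organoids. TRPM6, a magnesium channel, and ESRRG, a nuclear receptor, were each above background on 1 array. POU3F3 and TFAP2B, transcription factors of the developing distal nephron in the mouse, were under the array median on all arrays. CALB1, the calcium buffer calbindin, and TRPV5, an apical calcium channel, crossed the array median on some arrays and varied more, with ranges of 1.36 and 0.69 log2 units. MAL, a proteolipid of apical membrane sorting, and WFDC2, a secreted protease inhibitor family protein found in many epithelia, were above the array median on every array, at deposited intensities from 121 to 300.3 for MAL and from 154 to 308 for WFDC2.

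The principal cell and ureteric bud group had 10 of 12 genes above background on all arrays. GATA3, a transcription factor needed for ureteric bud growth, and HSD11B2, the enzyme that inactivates cortisol and so leaves the mineralocorticoid receptor to aldosterone, were above the array median on every array. AQP2, the vasopressin-regulated water channel that defines the principal cell, had deposited intensities of 13.4 and 13.8 in PKHD1-/- and PKHD1+/- flow organoids, 11.4 and 18.4 in PKHD1-/- and PKHD1+/- forskolin organoids, and 11.5 and 10.0 in PKHD1-/- and PKHD1+/- static organoids, all under the array median. SCNN1A, SCNN1B and SCNN1G, the subunits of the epithelial sodium channel, did not exceed 9.62 on any array. RET, the receptor through which the ureteric tip is drawn to branch, was above background on 2 arrays, PKHD1+/- flow and PKHD1+/- forskolin. In the intercalated group, FOXI1, the transcription factor that specifies intercalated cells, ran from 1.76 to 3.26, and SLC26A4, the chloride-bicarbonate exchanger pendrin, from 17.6 to 26.5. The proton pump subunit gene ATP6V0D2 was above background on 1 array, and the exchanger gene SLC4A1 on 5.

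Cyclic AMP is known to act on AQP2 transcription partly through a response element that the factor CREB binds, so the promoters of the members were searched for its core letters. In RefSeq windows of 300 bases around each gene's start (GRCh38.p14), TGACGTCA, whose other strand reads the same, was found in 1.85% of 35116 windows and in 0 of the 27 member genes with a window. The shorter TGACGT, or ACGTCA where it lies on the other strand, is part of the longer motif. The shorter motif was found in 7.98% of all windows and in 3 of the 27 genes: AQP2, AQP3 and ESRRG. These 27 genes have 48 windows, and a gene counted when any of its windows held the motif. Genes with several windows had more chances of a match, so the percentages of windows and the counts of genes are not comparable. The windows of the pair of water channels are shown with the match in capitals, because they carry the motif and their levels under forskolin are given further on. The AQP2 window is chr12:49950487-49950786 on the + strand, with its match starting 218 bases before the gene's start. The AQP3 window is chr9:33447544-33447843 on the - strand, with its match starting 236 bases before the start. A match is a description of the letters, not a bound site.
AQP2: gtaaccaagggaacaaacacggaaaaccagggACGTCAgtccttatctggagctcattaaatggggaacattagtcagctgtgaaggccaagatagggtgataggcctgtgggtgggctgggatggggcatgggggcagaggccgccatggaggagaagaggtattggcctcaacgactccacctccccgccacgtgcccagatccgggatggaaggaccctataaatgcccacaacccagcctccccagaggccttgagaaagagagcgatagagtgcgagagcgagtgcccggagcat
AQP3: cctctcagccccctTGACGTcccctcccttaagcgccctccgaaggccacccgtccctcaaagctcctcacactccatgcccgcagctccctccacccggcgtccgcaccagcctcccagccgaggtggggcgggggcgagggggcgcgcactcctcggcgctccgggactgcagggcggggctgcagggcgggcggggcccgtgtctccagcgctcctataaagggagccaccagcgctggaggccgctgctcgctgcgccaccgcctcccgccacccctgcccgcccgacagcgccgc

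**Figure D2:**
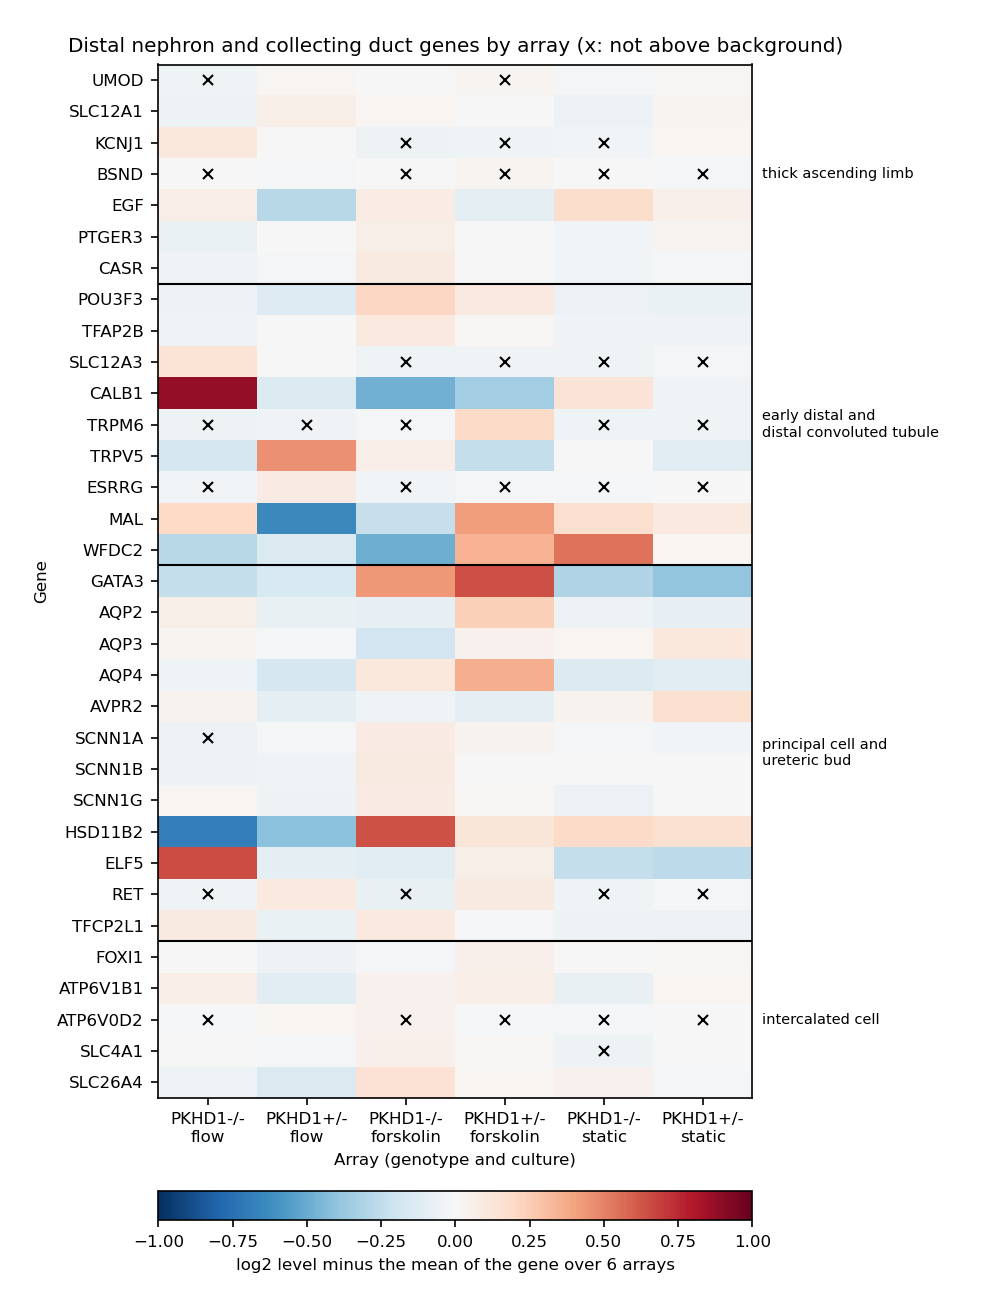
Log2 level of each of the 33 genes (rows, in the 4 segment groups) on each array (columns) minus the mean of that gene over the 6 arrays, from blue (lower) to red (higher); a cross marks an array on which the gene was not above background. GATA3 is highest in both forskolin columns, HSD11B2 lowest in both flow columns, and most other rows are near white.

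Across the 6 arrays, the normalized log2 level of 25 of the 33 genes varied by less than 0.5. The 8 that varied by 0.5 or more were CALB1 (1.36), HSD11B2 (1.33), MAL (1.06), GATA3 (1.04), WFDC2 (1.03), ELF5 (0.91), TRPV5 (0.69) and AQP4 (0.53). The normalization adds an offset of 50 intensity units before the log is taken, so it understates differences between dim values. The 3 comparisons used 29 of the genes, those above background on at least 2 arrays. BSND, TRPM6, ESRRG and ATP6V0D2 were not tested.

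The first question was whether the genotype altered these genes. EGF was higher in PKHD1-/- than in PKHD1+/- organoids in all 3 cultures, by 0.21 log2 units, and RET was lower in all 3, by 0.11, close to background (a difference of -0.11). The bright and variable genes, CALB1, MAL, WFDC2, TRPV5 and HSD11B2, differed in opposite directions in different cultures. None of the 29 passed, at adjusted p values of 1.00 in limma's moderated test of 3 PKHD1-/- against 3 PKHD1+/- arrays paired by culture. Of all 16364 genes tested, 0 passed as well (0%). At an unadjusted p under 0.05, 1 member (EGF) and 528 of all genes (3.23%) remained. No value differed by 0.5 or more in 1 direction in all 3 pairs, against 0.055% of all genes that were so much higher and 0.0122% that were so much lower. Of the 29 differences 18 were positive, with a median of 0.02 log2 units, against 49.6% positive and a median of -0.00 over all genes. The sign was the same in all 3 pairs for 4 members with PKHD1-/- higher (11.7% of all genes) and 2 with PKHD1-/- lower (9.07% of all genes).

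EGF had log2 levels of 7.57, 7.58 and 7.68 in PKHD1-/- flow, forskolin and static organoids, against 7.23, 7.41 and 7.56 in PKHD1+/- organoids in the same order. The genotypes did not overlap, though only just, and the difference was 0.21 ± 0.07 (moderated SE, 3 pairs, adjusted p = 1.00). Groups did not overlap, with PKHD1-/- higher, in 2.1% of all genes. RET was lower in all 3 pairs, at 5.73, 5.70 and 5.73 in PKHD1-/- organoids against 5.87, 5.86 and 5.76 in PKHD1+/- organoids (-0.11 ± 0.06, adjusted p = 1.00). It was not above background on any PKHD1-/- array, and on 2 of 3 PKHD1+/- arrays it was. Since the PKHD1+/- static array was at background as well, no fold is given. Under 75th percentile scaling the sign of RET turned (0.094), as did that of UMOD (0.16). UMOD was at 5.75, 5.80 and 5.78 in PKHD1-/- flow, forskolin and static organoids, against 5.81, 5.83 and 5.81 in PKHD1+/- organoids in the same order (-0.04 ± 0.05, adjusted p = 1.00), and its groups did not overlap either, as in 1.66% of all genes with PKHD1-/- lower. On the PKHD1-/- flow array, its lowest value, and the PKHD1+/- forskolin array, its highest, UMOD was not above background. The other 3 genes with 1 sign in all pairs were higher in PKHD1-/- organoids, with overlapping groups. SLC26A4 was at 6.46, 6.65 and 6.54 in PKHD1-/- flow, forskolin and static organoids, against 6.36, 6.52 and 6.48 in PKHD1+/- organoids (0.10 ± 0.05). TFCP2L1, a collecting duct transcription factor in the mouse, was at 6.41, 6.42 and 6.27 in PKHD1-/- organoids, against 6.25, 6.31 and 6.27 in PKHD1+/- organoids (0.09 ± 0.06). POU3F3 was at 6.02, 6.27 and 6.01 in PKHD1-/- organoids, against 5.94, 6.17 and 6.003 in PKHD1+/- organoids (0.06 ± 0.05). All 3 had an adjusted p of 1.00. By group, 3 of 6 thick ascending limb genes, 5 of 7 early distal genes, 7 of 12 principal cell and ureteric bud genes and 3 of 4 intercalated cell genes had a positive difference.

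The genotype differences of the more variable genes varied between cultures. CALB1 differed by 1.01 under flow, -0.13 with forskolin and 0.16 in static culture. Its flow value rests on the PKHD1-/- flow array, at a log2 level of 7.47, against 6.46 on the PKHD1+/- flow array. ELF5, a transcription factor of principal cells in the mouse, differed by 0.75, -0.17 and 0.02 in the same order. MAL had log2 levels of 8.91, 8.48 and 8.87 in PKHD1-/- flow, forskolin and static organoids, against 8.06, 9.12 and 8.80 in PKHD1+/- organoids in the same order. Its lowest value was the PKHD1+/- flow array and its highest the PKHD1+/- forskolin array. TRPV5 had log2 levels of 6.50, 6.74 and 6.67 in PKHD1-/- flow, forskolin and static organoids, against 7.12, 6.43 and 6.56 in PKHD1+/- organoids in the same order. TRPV5 thus ran the other way from CALB1 under flow (-0.63) and with forskolin (0.30), but not in static culture (0.10). HSD11B2 differed by -0.29 under flow, 0.51 with forskolin and 0.04 in static culture. Each of these values rests on 1 array per genotype and was not tested. Over the 3 cultures the fitted differences were 0.35 ± 0.26 for CALB1, 0.20 ± 0.22 for ELF5, -0.07 ± 0.22 for TRPV5 and 0.09 ± 0.18 for HSD11B2, all with adjusted p = 1.00. A gene whose difference varies this much between cultures has a large error in this design.

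**Figure D3:**
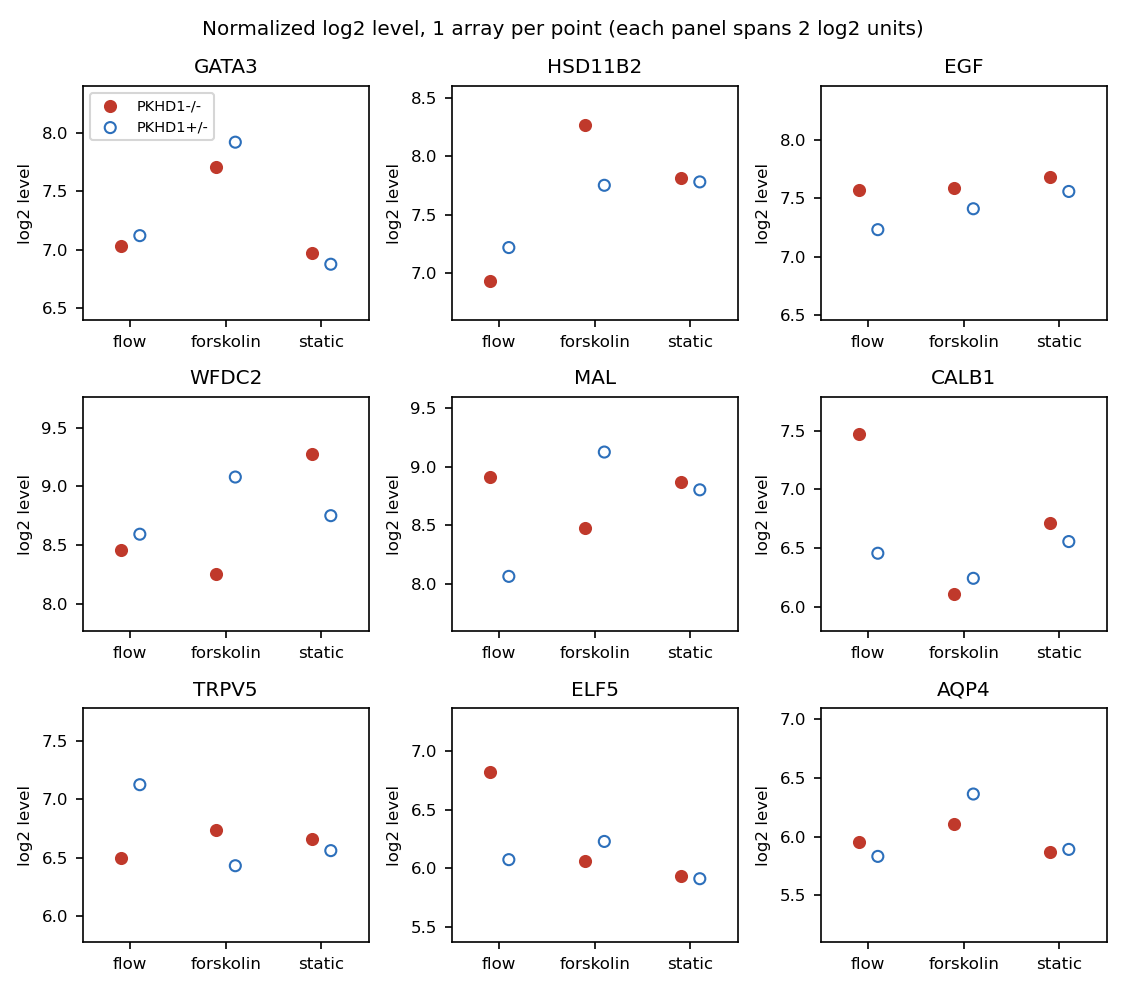
Normalized log2 level of 9 of the genes, 1 point per array; filled red points are PKHD1-/- and open blue points PKHD1+/-, in flow, forskolin and static culture, and each panel spans 2 log2 units. The GATA3 forskolin points (7.71 and 7.92) are above all others of that gene, and the HSD11B2 flow points (6.93 and 7.22) below all others of that gene.

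The second question was what flow added to organoids on the same matrix. HSD11B2, the cortisol-inactivating enzyme, was lower under flow in both genotypes, by 0.72 log2 units (a difference of -0.72). ELF5 was higher in both, by 0.53, mostly in PKHD1-/- organoids. In 2 flow arrays against 2 static arrays, paired by genotype, 0 of the 29 members and 0 of 16364 genes (0%) passed limma's test. At an unadjusted p under 0.05, 1 member (HSD11B2) and 971 of all genes (5.93%) remained. The members' differences were positive for 15 and negative for 14, with a median of 0.01, against 45.6% positive and a median of -0.01 over all genes. Both pairs were higher under flow for 7 members (21.1% of all genes) and lower for 8 (24.2% of all genes). Groups did not overlap for 4 members with flow higher (15.7% of all genes) and 5 with flow lower (18.9% of all genes).

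HSD11B2 had the largest difference. Its log2 levels were 6.93 and 7.22 in PKHD1-/- and PKHD1+/- flow organoids, against 7.82 and 7.78 in PKHD1-/- and PKHD1+/- static organoids. The groups did not overlap, and the level was lower by 0.88 within PKHD1-/- and by 0.56 within PKHD1+/- organoids; the fitted difference was -0.72 ± 0.22 (adjusted p = 0.772). It was the only member lower by at least 0.5 in both pairs, as were 0.574% of all genes, and none was higher by that much, against 1.08% of all genes.

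WFDC2 was also lower in both pairs, at 8.46 and 8.59 in PKHD1-/- and PKHD1+/- flow organoids against 9.28 and 8.75 in PKHD1-/- and PKHD1+/- static organoids (-0.49 ± 0.36, adjusted p = 1.00), and without the PKHD1-/- static array its difference was 0.016. EGF, at 7.57 and 7.23 in the flow organoids against 7.68 and 7.56 in the static organoids, overlapped (-0.22 ± 0.08, adjusted p = 0.881). WFDC2 and EGF both encode secreted proteins. In the other direction, ELF5 was at 6.82 and 6.07 in PKHD1-/- and PKHD1+/- flow organoids against 5.94 and 5.91 in PKHD1-/- and PKHD1+/- static organoids (0.53 ± 0.26, adjusted p = 0.998). Its groups did not overlap, but the difference was 0.89 within PKHD1-/- and 0.16 within PKHD1+/- organoids.

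GATA3 was at 7.04 and 7.12 in the flow organoids against 6.97 and 6.88 in the static organoids (0.15 ± 0.10, adjusted p = 1.00). SLC12A3 was at 5.95 and 5.82 in the flow organoids against 5.77 and 5.79 in the static organoids, where it was not above background. The flow level was at least 1.07-fold higher, with an adjusted p of 1.00 in the fit, and the sign turned under 75th percentile scaling (-0.097). None of the water channels passed: the flow difference was 0.06 ± 0.14 for AQP2, -0.05 ± 0.09 for AQP3 and 0.02 ± 0.12 for AQP4, none past the threshold. CALB1, TRPV5 and MAL had pairs of opposite sign. The flow difference of CALB1 was 0.75 within PKHD1-/- and -0.10 within PKHD1+/- organoids. That of TRPV5 was -0.17 within PKHD1-/- and 0.56 within PKHD1+/- organoids, and that of MAL was 0.04 within PKHD1-/- and -0.74 within PKHD1+/- organoids.

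**Figure D4:**
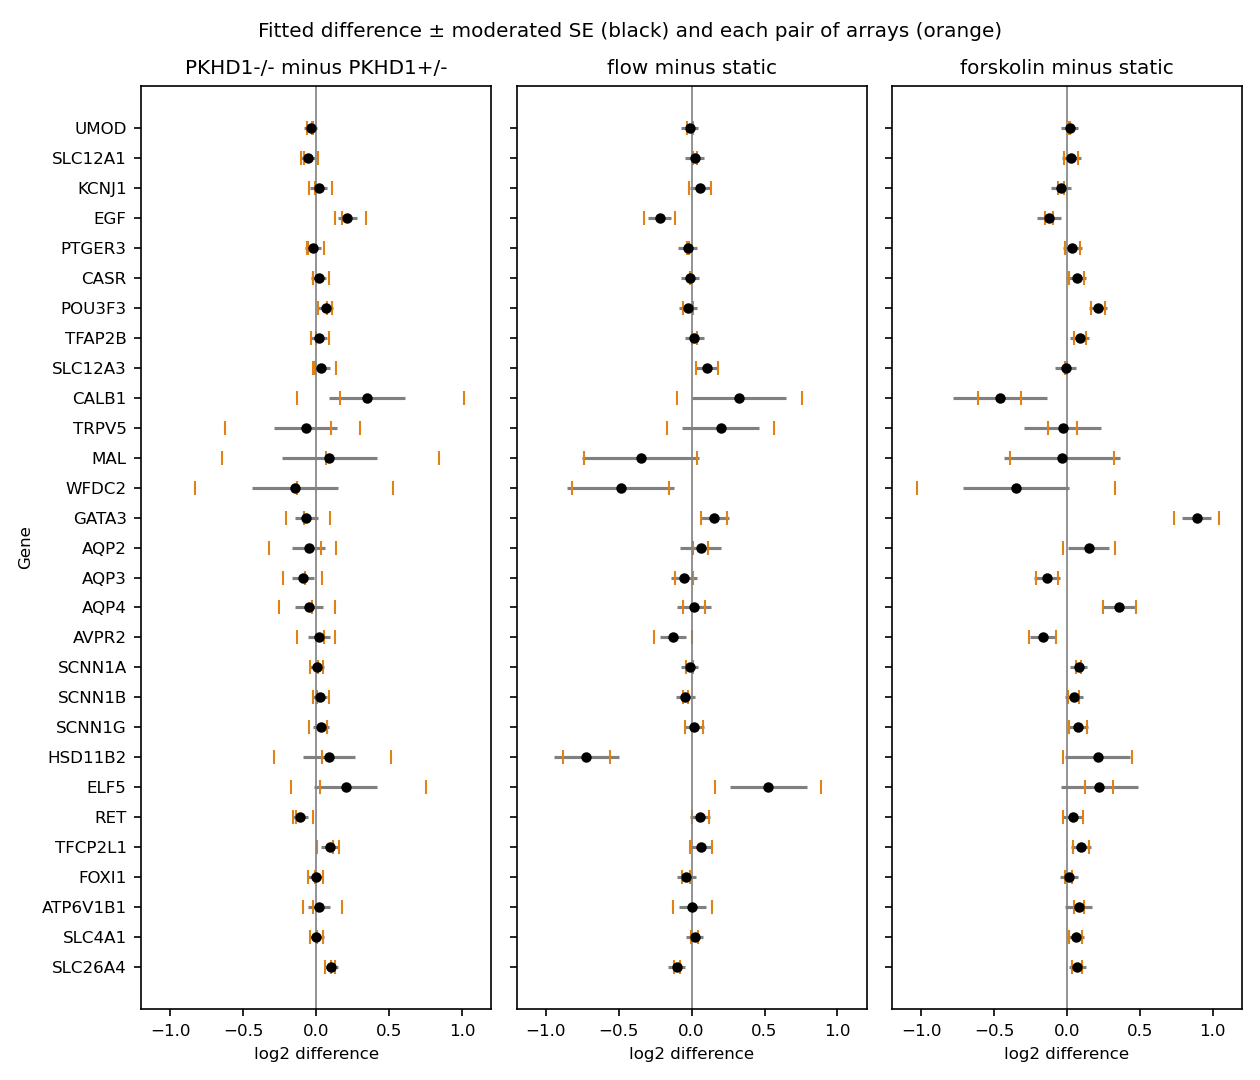
Fitted log2 difference of each of the 29 genes tested (black point, with its moderated SE as a grey bar) and the difference within each pair of arrays (orange ticks), for PKHD1-/- minus PKHD1+/- (3 pairs), flow minus static (2 pairs) and forskolin minus static (2 pairs). GATA3 with forskolin (0.89) and HSD11B2 with flow (-0.72) stand farthest from 0, and no gene passed the threshold.

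The third comparison set forskolin organoids against the same static arrays that served the flow comparison. GATA3, the ureteric bud factor, was higher in both genotypes, by 0.89 log2 units. The vasopressin-regulated channel AQP2 and the sodium channel subunits differed by 0.15 or less in the fit used here. They were under the array median, and the offset understates differences between dim values. Over the other settings AQP2 ran from -0.054 to 0.49 and SCNN1A from 0.051 to 1.21. SCNN1B reached 0.53 and SCNN1G 0.51. In limma's test 169 of 16364 genes passed (1.03%; 0.703% higher and 0.33% lower), and 0 of the 29 members did. At an unadjusted p under 0.05, 3 members (GATA3, POU3F3 and AQP4) and 3801 of all genes (23.2%) remained. The members' differences were positive for 20 of 29, with a median of 0.05, against 50.8% positive and a median of 0.00 over all genes. Both pairs were higher with forskolin for 14 members (37% of all genes) and lower for 6 (35.1% of all genes). By group, they were positive for 4 of 6 thick ascending limb genes, 2 of 7 early distal genes, 10 of 12 principal cell and ureteric bud genes and 4 of 4 intercalated cell genes. Groups did not overlap for 12 members with forskolin higher (30.8% of all genes) and 3 with forskolin lower (28.8% of all genes).

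GATA3 had log2 levels of 7.71 and 7.92 in PKHD1-/- and PKHD1+/- forskolin organoids, against 6.97 and 6.88 in PKHD1-/- and PKHD1+/- static organoids. The groups did not overlap, and the difference was 0.74 within PKHD1-/- and 1.04 within PKHD1+/- organoids. The fitted difference was 0.89 ± 0.10, or 1.85-fold, with an adjusted p of 0.0611. It was the only member higher by at least 0.5 in both pairs, as were 4.32% of all genes, and none was lower by that much, against 4.8% of all genes. Over 14 other ways of processing, its difference stayed between 0.77 and 1.38 and the adjusted p between 0.0247 and 0.314.

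AQP4, a basolateral water channel of principal cells that astrocytes and muscle fibres also express, was at 6.11 and 6.36 in PKHD1-/- and PKHD1+/- forskolin organoids against 5.86 and 5.89 in PKHD1-/- and PKHD1+/- static organoids. The groups did not overlap, and the difference was 0.36 ± 0.12 (adjusted p = 0.198). POU3F3 was at 6.27 and 6.17 in the forskolin organoids against 6.01 and 6.003 in the static organoids (0.21 ± 0.06, adjusted p = 0.171), again without overlap. ELF5 was at 6.06 and 6.23 in the forskolin organoids against 5.94 and 5.91 in the static organoids (0.22 ± 0.26, adjusted p = 0.689), and without the PKHD1+/- forskolin array the difference was -0.058.

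CALB1 had the largest negative difference, at 6.11 and 6.24 in PKHD1-/- and PKHD1+/- forskolin organoids against 6.72 and 6.55 in PKHD1-/- and PKHD1+/- static organoids (-0.46 ± 0.32, adjusted p = 0.481). Its groups did not overlap. AVPR2, the vasopressin receptor of the collecting duct that signals through cyclic AMP, was at 6.16 and 6.10 in the forskolin organoids against 6.23 and 6.36 in the static organoids (-0.17 ± 0.09, adjusted p = 0.382), and its sign turned under 75th percentile scaling (0.23). AQP2, whose promoter window is shown above, was at 6.19 and 6.51 in the forskolin organoids against 6.22 and 6.18 in the static organoids (0.15 ± 0.14, adjusted p = 0.604). The pairs of AQP2 differed in sign. AQP3 was at 6.41 and 6.64 in the forskolin organoids against 6.62 and 6.70 in the static organoids (-0.14 ± 0.09, adjusted p = 0.462). HSD11B2 was at 8.26 and 7.75 in PKHD1-/- and PKHD1+/- forskolin organoids against 7.82 and 7.78 in PKHD1-/- and PKHD1+/- static organoids (0.21 ± 0.22, adjusted p = 0.648), with pairs of opposite sign. WFDC2 was at 8.25 and 9.08 in the forskolin organoids against 9.28 and 8.75 in the static organoids (-0.35 ± 0.36, adjusted p = 0.645), again with pairs of opposite sign. MAL differed by -0.03 ± 0.40. The subunits of the sodium channel differed by 0.08 ± 0.06 (SCNN1A), 0.05 ± 0.06 (SCNN1B) and 0.08 ± 0.07 (SCNN1G), at adjusted p values from 0.517 to 0.727.

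The forskolin values depended on how the arrays were scaled. Scaling each array to its 75th percentile in place of quantile normalization moved the median of all genes by 0.31 for forskolin and by -0.11 for flow. Under it 6833 genes passed for forskolin, 87.7% of them higher, against 68.0% of the 169 under quantile normalization and 48.9% of 659 in the authors' value table. With that scaling 19 of 29 members passed, all higher, against 41.8% of all genes past the threshold and 36.6% past it and higher, and the members' median was 0.53, against 0.31 over all genes. GATA3 was at 0.91 (adjusted p = 0.0254) and AQP4 at 0.76 (adjusted p = 0.0254) under that scaling. The genotype and flow comparisons had 0 members past the threshold under each of the 15 other settings.

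Other genes of the same segments gave the setting of these values. In the forskolin comparison, 4 of 13 other thick ascending limb genes, 5 of 16 distal convoluted and connecting tubule genes, 9 of 20 principal cell and ureteric genes and 6 of 14 intercalated cell genes had a positive difference, with medians of -0.06, -0.05, -0.03 and -0.03. Among the genes of the 4 lists, 1 passed, against 1.03% of all genes. GFRA1, the co-receptor with which RET binds the growth factor GDNF, rose to log2 levels of 8.11 and 8.13 in PKHD1-/- and PKHD1+/- forskolin organoids, against 6.997 and 6.87 in PKHD1-/- and PKHD1+/- static organoids (1.19 ± 0.07, adjusted p = 0.0445). The call ended when genes were not filtered for background (adjusted p = 0.0501) and when any 1 of the 6 arrays was left out (adjusted p from 0.100 to 0.304). RET itself was near background on the same arrays, with a difference of 0.04 ± 0.07.

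No other gene of these lists passed, and the 2 or 3 in each list with the largest differences of 1 sign in both pairs are given as values. SPP1, the secreted matrix protein osteopontin, which tubules of several segments and many other cells make, was at 10.40 and 11.08 in PKHD1-/- and PKHD1+/- forskolin organoids against 12.34 and 12.52 in PKHD1-/- and PKHD1+/- static organoids (-1.69 ± 0.16, adjusted p = 0.0562). IRX3, a homeobox factor of nephron patterning, was at 7.42 and 7.10 in the forskolin organoids against 6.20 and 6.29 in the static organoids (1.02 ± 0.12, adjusted p = 0.0635). KCNJ16, a basolateral potassium channel subunit, differed by -1.58 ± 0.39 (adjusted p = 0.144), and ATP2B1, a plasma membrane calcium pump, by -0.53 ± 0.17 (adjusted p = 0.204). CA2, the cytosolic carbonic anhydrase of intercalated cells and proximal tubule, differed by -1.14 ± 0.22 (adjusted p = 0.104), and AQP6, an intracellular channel of intercalated cells, by 0.28 ± 0.13 (adjusted p = 0.322). In the principal cell and ureteric list, these 3 genes had lower levels with forskolin, unlike GFRA1. CLDN4, a tight junction claudin of the collecting duct, was at 6.21 and 6.45 in PKHD1-/- and PKHD1+/- forskolin organoids against 7.24 and 7.58 in PKHD1-/- and PKHD1+/- static organoids (-1.08 ± 0.15, adjusted p = 0.0731). ELF3, an epithelial transcription factor, was at 6.87 and 6.996 in the forskolin organoids against 7.80 and 7.81 in the static organoids (-0.87 ± 0.08, adjusted p = 0.0533). EMX2, a homeobox factor of the ureteric bud, was at 9.74 and 9.40 in the forskolin organoids against 10.09 and 10.83 in the static organoids (-0.88 ± 0.30, adjusted p = 0.213). The groups did not overlap for any of the 3, as in 28.8% of all genes with forskolin lower.

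Genes shared by tubule epithelia were lower with forskolin in both pairs for 8 of 8 measured (35.1% of all genes), with a median of -0.50. In limma's test 0 of 8 passed (1.03% of all genes). The fitted difference of 7 of 8 was also negative for flow (median -0.12), and that of 7 of 8 for PKHD1-/- minus PKHD1+/- (median -0.14). EPCAM, an epithelial adhesion molecule, was at 8.94 and 8.95 in PKHD1-/- and PKHD1+/- forskolin organoids against 9.60 and 10.28 in PKHD1-/- and PKHD1+/- static organoids (-0.996 ± 0.20, adjusted p = 0.109). KRT18, a simple epithelial keratin, was at 10.20 and 9.53 in the forskolin organoids against 10.84 and 11.46 in the static organoids (-1.29 ± 0.37, adjusted p = 0.170). CDH16, the kidney-specific cadherin, differed by -0.63 ± 0.14 and PAX8, a transcription factor of the renal lineage, by -0.61 ± 0.28. GATA3 and GFRA1 had higher levels on the same arrays on which these epithelial genes had lower ones.

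**Figure D5:**
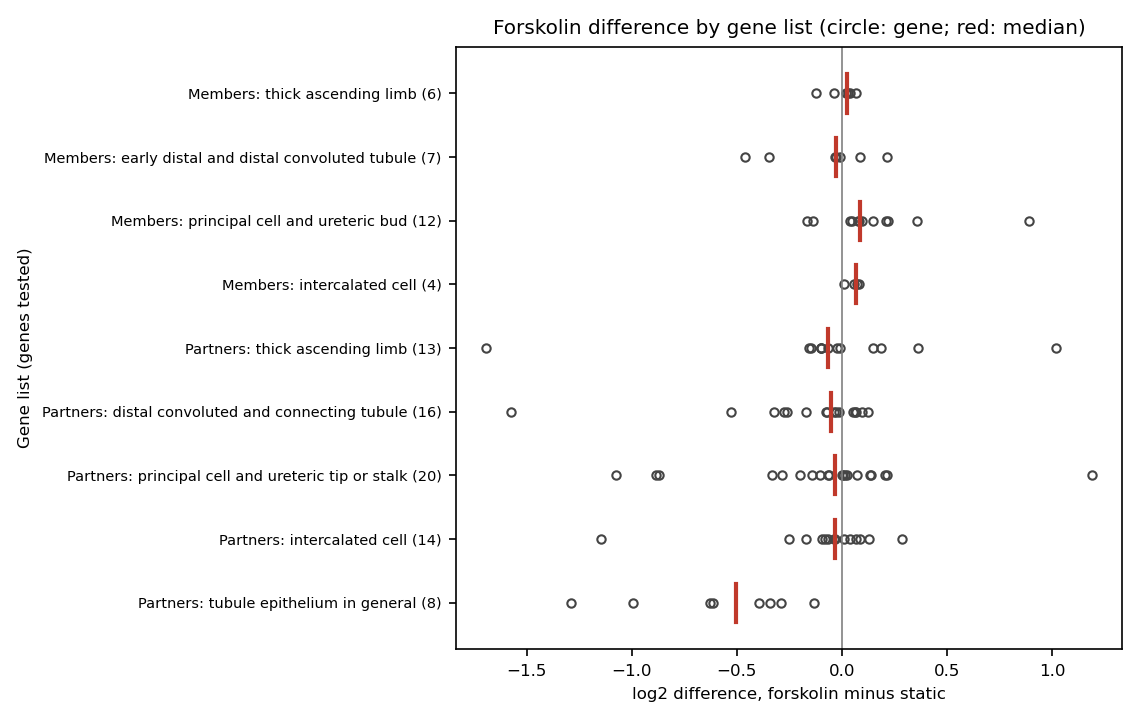
Log2 difference, forskolin minus static, of each gene tested (circles) in the 4 member groups and in 5 lists of other genes of the same segments and of tubule epithelium in general, with the median of each list in red and the number of genes in brackets. The tubule epithelium genes all lie below 0 (median -0.50), while the medians of the member groups lie between -0.03 and 0.09.

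Under flow, the same 5 lists had 0 genes past the threshold. Differences were positive for 8 of 13 thick ascending limb genes, 9 of 16 distal convoluted and connecting tubule genes, 10 of 20 principal cell and ureteric genes, 8 of 14 intercalated cell genes and 1 of 8 tubule epithelium genes. The largest differences of 1 sign in both pairs were those of CLDN4 (0.70 ± 0.15, adjusted p = 0.601), AQP6 (0.68 ± 0.13, adjusted p = 0.595), and NEDD4L, a ubiquitin ligase that removes the epithelial sodium channel from the membrane (0.53 ± 0.10, adjusted p = 0.595). CLDN4 was at 8.17 and 8.04 in PKHD1-/- and PKHD1+/- flow organoids against 7.24 and 7.58 in PKHD1-/- and PKHD1+/- static organoids, without overlap. IRX1, a homeobox factor of nephron patterning, differed by -0.45 ± 0.24 and PTH1R, the parathyroid hormone receptor, by -0.28 ± 0.07, neither past the threshold. In the genotype comparison 0 genes of these lists passed either, and 9 of 13, 7 of 16, 13 of 20, 7 of 14 and 1 of 8 differences were positive in the same order of lists. NEDD4L was at 8.65, 7.97 and 7.95 in PKHD1-/- flow, forskolin and static organoids against 8.08, 7.57 and 7.70 in PKHD1+/- organoids in the same order (0.41 ± 0.08, adjusted p = 1.00). SPP1 differed by -0.50 ± 0.13 and KCNJ16 by -0.59 ± 0.32 (both with adjusted p = 1.00).

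Markers of other cells moved with the cultures. The summed deposited intensity of 8 skeletal muscle genes was 18324 and 8571 in PKHD1-/- and PKHD1+/- flow organoids, 76154 and 61198 in PKHD1-/- and PKHD1+/- forskolin organoids, and 3408 and 723 in PKHD1-/- and PKHD1+/- static organoids. All 8 were above background on all arrays. With forskolin 5 of 8 passed and were higher (0.703% of all genes), with a median difference of 4.64. The fitted difference, PKHD1-/- minus PKHD1+/-, was also positive for all 8, with a median of 0.89 and 0 of 8 past the threshold. The median genotype difference was 0.94 under flow and 1.36 in static culture, but 0.12 with forskolin. Only 5 of 8 were higher in PKHD1-/- organoids in every culture. With forskolin MYOD1, MYOG and ACTC1 had lower levels in PKHD1-/- than in PKHD1+/- organoids. The summed intensity of 9 neuronal genes was 1802 and 1588 in PKHD1-/- and PKHD1+/- flow organoids, 1739 and 1106 in PKHD1-/- and PKHD1+/- forskolin organoids, and 905 and 684 in PKHD1-/- and PKHD1+/- static organoids. Of the neuronal genes, all 9 had a positive flow difference (median 0.40), 6 of them in both pairs (21.1% of all genes). With forskolin 4 were higher and 5 lower (median -0.17), although the sum was higher. DCX was at log2 levels of 10.96 and 10.02 in PKHD1-/- and PKHD1+/- forskolin organoids, against 9.19 and 9.16 in static organoids. The summed intensity of 5 glial genes was 561 and 517 in PKHD1-/- and PKHD1+/- flow organoids, 142 and 146 in PKHD1-/- and PKHD1+/- forskolin organoids, and 306 and 347 in PKHD1-/- and PKHD1+/- static organoids. Of these, 4 were higher under flow (median 0.50) and 0 with forskolin (median -0.36). AQP4, which astrocytes and muscle fibres also express, was higher with forskolin, as were all 8 skeletal muscle genes. Whether its level follows either cell type was not tested. Sympathetic neurons also express GATA3, RET and TFAP2B. Of their 4 marker genes measured, DBH, the enzyme that makes noradrenaline, differed with forskolin by 0.47 ± 0.09 and PHOX2A by 0.28 ± 0.21, TH by -0.04 ± 0.07 and HAND2 by 0.04 ± 0.10 (adjusted p from 0.106 to 0.859), and their summed deposited intensity was 129 and 104 in PKHD1-/- and PKHD1+/- forskolin organoids against 111 and 62.3 in PKHD1-/- and PKHD1+/- static organoids. Among kidney cell types, 9 of 10 proximal tubule genes were higher under flow (median 0.30) and 4 with forskolin (median -0.17), and 1 of 7 podocyte genes was higher under flow (median -0.26) and 5 with forskolin (median 0.08). Of 8 stromal genes, 2 were higher under flow (median -0.19) and 2 with forskolin (median -0.70). The part of these cells in the members' differences was not tested.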

How the data were processed

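Total RNA of 6 organoid cultures was labelled with Cy5 and measured on single-colour 3D-Gene oligonucleotide arrays, per the labels. The deposited scanner files hold the median intensity of each of 27456 spots, 2680 of them blank, per the file headers, without background subtraction. The authors' deposited value table holds 1 intensity for each probe, a straight line of its spot median that starts from the trimmed blank mean and has a median of 25 on every array. Its normalization method is not given in the sources used here. Spot medians were corrected by normexp (offset 50), log2-transformed and quantile normalized (limma 3.58.1, R 4.3.3). Of 24460 probes, 20236 carried 1 gene symbol, in places updated through the RefSeq gene table, 4224 carried none, and 205 marked as not good were left out. PTGER3, CASR, TFAP2B and AQP3 had 2 probes each. The CASR and TFAP2B second probes were above background on 1 array only, and the AQP3 probes differed with forskolin by -0.18 and -0.09. Within each genotype the AQP3 probes ran in opposite directions. From static to forskolin, 1 went from 6.56 to 6.12 in PKHD1-/- and from 6.58 to 6.66 in PKHD1+/- organoids. The other went from 6.68 to 6.70 in PKHD1-/- and from 6.82 to 6.62 in PKHD1+/- organoids. Genes above background on at least 2 arrays were tested, 16364 of 17446.

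The model culture plus genotype was fitted over all 6 arrays with lmFit and eBayes, 2-sided, with Benjamini-Hochberg adjustment over all genes tested and a threshold of 0.05. Since each group has 1 array, p-values measure only the spread that culture and genotype leave over (2 residual degrees of freedom, prior 1.54), which may be technical. The number of arrays limits the precision. Values are given on every array for the 6 members with the largest difference of 1 sign in each comparison and, for levels, for the 6 with the highest mean level, and others were named for their variability or role after their values were seen. Members and lists were chosen with earlier results of these data known. Alternatives covered scaling, background correction, offset, the value table, filters, the prior, the brightest probe, leaving out each array and the flow and static arrays alone.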

Additional observations from a re-analysis of the deposited data

Results flagged for a closer look

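MAL, the apical sorting proteolipid, had genotype differences of opposite sign in different cultures. The level was higher in PKHD1-/- than in PKHD1+/- organoids by 0.84 log2 units under flow (8.91 against 8.06) and lower by 0.64 with forskolin (8.48 against 9.12), a difference of -0.64. WFDC2 likewise differed by 0.53 in static culture (9.28 in PKHD1-/- against 8.75 in PKHD1+/- organoids) and by -0.83 with forskolin (8.25 in PKHD1-/- against 9.08 in PKHD1+/- organoids). Each value rests on 1 array per genotype, and whether the genotype differences of MAL or WFDC2 vary between cultures was not tested.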

How the results depend on the processing

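For genotype, 86 of 88 differences of the 6 named members kept their direction and side of the threshold over 15 other settings, for flow 87 of 89, and for forskolin 76 of 84 over 14 settings, where 6 passed the threshold that had not. Under 75th percentile scaling the genotype differences of RET (0.094) and UMOD (0.16), the flow difference of SLC12A3 (-0.097) and the forskolin difference of AVPR2 (0.23) reversed; that scaling moved the median of all genes by 0.31 for forskolin, and the cause of the rest was not tested. Leaving out the PKHD1-/- static array reversed WFDC2 under flow (0.016, the others down to -0.99), and leaving out the PKHD1+/- forskolin array reversed ELF5 with forskolin (-0.058, the others up to 0.50). The members' median genotype difference of 0.02 was 0.18 under 75th percentile scaling, 0.049 in the authors' value table and -0.015 to 0.030 with 1 array left out. Their median flow difference of 0.01 was -0.18, 0.27 and -0.0095 to 0.0051 in the same order, and their median forskolin difference of 0.05 was 0.53, 0.40 and 0.030 to 0.080 likewise, and 0.10 with an offset of 16. The members past the threshold for forskolin numbered 19 under 75th percentile scaling and 1 each with an offset of 16 (GATA3, 1.13, adjusted p = 0.0382), in the value table (AQP4, 2.07, adjusted p = 0.0271) and with a trended, robust prior (GATA3, 0.89, adjusted p = 0.0247). All genes past it numbered 6833, 585, 659 and 1177 in those settings, 41 without a filter, and 0 with any 1 array left out, against 169. For flow 1 gene of all passed with the trended, robust prior. HSD11B2 under flow ranged from -1.06 to -0.44 (adjusted p from 0.510 to 0.987). The fits pair arrays by culture or by genotype. No further pairing by replicate number could be fitted because the labels carry none. A gene at blank level allows no difference to be seen.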
